A study of Homo sapiens with 12 samples.

Results

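Cells of the MCF-10A line, which grow from normal human breast epithelium without forming tumours and have basal character, were compared under 2 forms of activated NOTCH1. The 3 arrays titled NICD were set directly against the 3 arrays titled Notch1 L1601P+∆P, which makes 6 of the 12 arrays of the study. NICD is the intracellular domain of the receptor on its own, free of the membrane. Notch1 L1601P+∆P is a receptor with the L1601P change in the domain that holds its subunits together, and with the C-terminal PEST region, which limits the life of the intracellular domain, removed (∆P). All cells of both groups had been infected with a retrovirus and were collected 48 h later in the usual MCF-10A growth medium. The other 6 arrays, 3 with the empty vector and 3 with wild-type full-length Notch1, gave the reference levels and helped to estimate the spread. The array descriptions add gfp to the name of NICD, and the sources used here do not say whether that is a fused tag or a separate reporter. The promoter that drives each construct, the share of cells infected and the amount of active protein are likewise not given. Replicates are labelled biological with no further detail, and p-values therefore cover only the spread among these samples, part of which may be technical.

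Notch receptors are cut when a ligand on a neighbouring cell pulls on them, which frees the intracellular domain to enter the nucleus. There it joins the DNA-binding protein RBPJ and a Mastermind coactivator and turns on genes such as those of the HES and HEY repressors and of NRARP, an inhibitor that feeds back on the pathway. In the mammary gland Notch signalling is known for its part in the choice between basal and luminal cells, and changes of the L1601P and PEST type are known from T-cell leukaemia.

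Each value is a log2 signal from an Affymetrix array, so a difference of 1 is a 2-fold change. Group means are given ± SD and differences ± standard error of the fit, over 3 arrays a group. A gene was called when its limma adjusted p was under 0.05 over all 19775 genes tested, each read by 1 probe set. The 12 array medians ran from 5.64 to 5.70. With 3 arrays a group, their number limits the precision. The basal keratins were bright in both groups, with KRT5 at 13.68 ± 0.02 with Notch1 L1601P+∆P and 13.91 ± 0.06 with NICD, and KRT14 at 13.91 ± 0.03 and 13.90 ± 0.08. The cadherin CDH3 stood at 11.51 ± 0.08 and 11.62 ± 0.12. The progesterone receptor gene PGR, a luminal marker, was near the floor at 3.76 ± 0.12 and 3.68 ± 0.16. Other luminal markers were bright, such as CD24 at 12.8 ± 0.17 and 12.33 ± 0.08 and KRT8 at 10 ± 0.15 and 10.26 ± 0.14. As a measure of RNA integrity, the 3′ minus the 5′ control signal was -0.01 ± 0.02 with Notch1 L1601P+∆P and -0.04 ± 0.02 with NICD for GAPDH. For ACTB it was 0.29 ± 0.07 and 0.39 ± 0.05. The two-sided exact permutation p was 0.2 for each control, where 3 arrays against 3 can reach 0.1 at the lowest.

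NICD and Notch1 L1601P+∆P left the cells with different levels of 3923 of the 19775 genes, or 19.8%. With NICD 1727 genes (8.73%) were higher and 2196 (11.1%) lower, and the median difference over all genes was -0.03. The large differences ran mostly one way: 239 called genes (1.21%) were at least 2-fold higher with NICD and 75 (0.379%) at least 2-fold lower. At 4-fold the counts were 76 higher and 2 lower, and 9 genes were at least 16-fold higher. Among the called genes 44% were higher, and after cyclic loess scaling of the arrays that share was 53.5%, so the balance of directions among small differences depends on the scaling. For 34.2% of all genes no array of one group fell in the range of the other, with NICD above for 13.8% and below for 20.4%. Against vector, 5460 genes (27.6%) were called with NICD and 1012 (5.12%) with Notch1 L1601P+∆P. Each array reads many cells together, so a change in the share of cells that express a gene and a change in RNA per cell cannot be told apart.

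**Figure D1:**
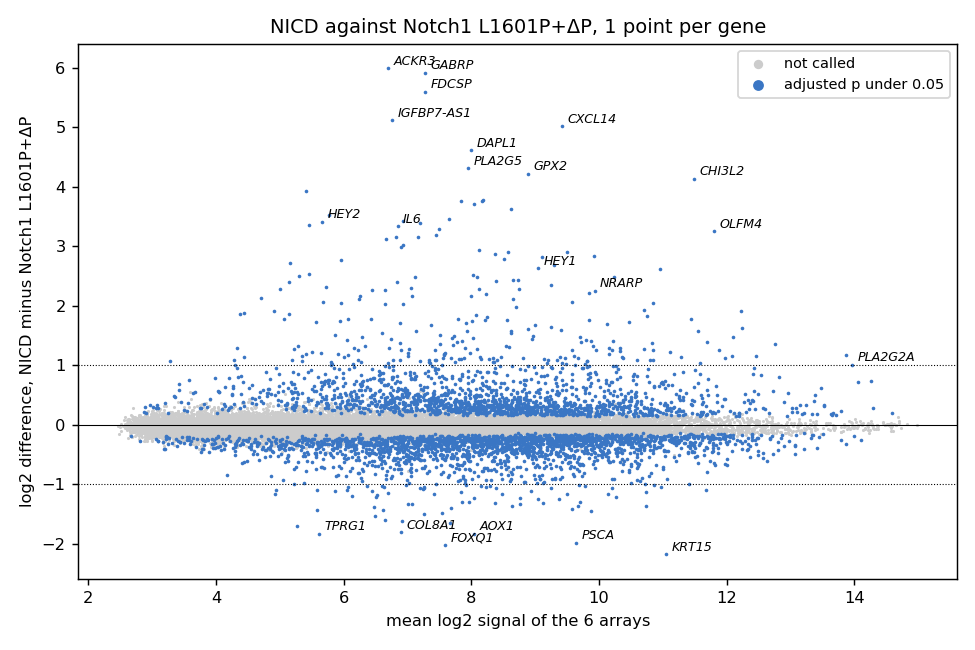
Log2 difference between NICD and Notch1 L1601P+∆P (vertical axis) against the mean log2 signal of the 6 arrays (horizontal axis), 1 point per gene, with called genes in blue and dotted lines at 2-fold. The cloud of large differences lies above the zero line, led by ACKR3 at 5.99, while the lowest labelled gene is KRT15 at -2.18.

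NOTCH1, the gene introduced, was read by 2 probe sets that gave different answers, and only the dimmer one rose over vector with both forms. On the brighter one NOTCH1 stood at 9.51, 9.55 and 9.44 with Notch1 L1601P+∆P and at 9.64, 9.68 and 9.83 with NICD. The groups did not overlap, and the difference was 0.22 ± 0.06 (limma adjusted p = 0.0233). That call was lost when NICD replicate 3 (0.16, adjusted p = 0.0849), Notch1 L1601P+∆P replicate 1 (0.22, adjusted p = 0.059) or Notch1 L1601P+∆P replicate 3 (0.19, adjusted p = 0.0803) was left out. Against vector, which stood at 9.44 ± 0.06 on this brighter probe set, Notch1 L1601P+∆P was not called (0.06, limma adjusted p = 0.612). The brighter probe set thus gave no clear reading of the introduced receptor form. On the dimmer one NOTCH1 stood at 6.54 ± 0.20 with vector, 8.74 ± 0.02 with Notch1 L1601P+∆P and 8.79 ± 0.04 with NICD. Both forms were called above vector there, by 2.2 and 2.25. There the 2 activated forms differed by 0.05 ± 0.08 (adjusted p = 0.757 over all 54675 probe sets). The stretches of the transcript read by these probe sets were not located, and transcript levels do not measure the active protein.

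Notch target genes did not move as a block between the 2 forms. Of 22 such genes, all tested, 10 were higher with NICD, 3 lower and 9 not called, against 8.73% higher and 11.1% lower over all genes. Their median difference was 0.07, beside -0.03 for all genes. Leaving out NICD replicate 2 brought the lower count to 5.

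The HEY repressors showed the largest differences of the list. HEY2 stood at 4.10, 3.77 and 4 with Notch1 L1601P+∆P and at 7.47, 7.28 and 7.36 with NICD. Every NICD array lay far above every Notch1 L1601P+∆P array, and the difference was 3.42 ± 0.08 (limma adjusted p = 2.36e-11). HEY2 with Notch1 L1601P+∆P was not called against vector (0.27, adjusted p = 0.0739), where its level was 3.68 ± 0.06. HEY1, its close relative, stood at 7.68, 7.76 and 7.77 with Notch1 L1601P+∆P and at 10.38, 10.33 and 10.40 with NICD. The HEY1 groups lay apart by 2.63 ± 0.06 (adjusted p = 2.36e-11). Unlike HEY2, HEY1 was called with Notch1 L1601P+∆P against vector (0.72, adjusted p = 1.81e-05). HEYL, the remaining HEY gene, differed by -0.25 ± 0.10 and was not called (adjusted p = 0.114).

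The HES repressors differed little between the forms. HES1, the best known target of the pathway, stood at 10, 9.85 and 9.99 with Notch1 L1601P+∆P and at 9.81, 9.97 and 9.54 with NICD. Its groups overlapped, and the difference of -0.17 ± 0.09, with a 95% interval from -0.38 to 0.03, was not called (limma adjusted p = 0.227). Without NICD replicate 2 it was -0.27 and called (adjusted p = 0.0438). HES4 rose with NICD, from 8.30, 8.38 and 8.15 to 9.11, 9.15 and 8.80, a difference of 0.74 ± 0.09 (adjusted p = 5.76e-05). The HES4 groups did not overlap, although the larger step was that from vector (7 ± 0.06) to Notch1 L1601P+∆P, 1.28 on the log2 scale (adjusted p = 2.66e-06). HES2 was higher by 0.36 ± 0.06 with NICD (adjusted p = 0.000524), and only this 1 of its 3 probe sets was called over all probe sets. HES5 (-0.03 ± 0.11), HES6 (-0.15 ± 0.11) and HES7 (-0.36 ± 0.13) were not called, HES7 with an adjusted p of 0.0706. The HES7 difference was -0.50 and called without NICD replicate 1 (adjusted p = 0.0119), and -0.44 without Notch1 L1601P+∆P replicate 3 (adjusted p = 0.0488).

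The promoters of these repressors are shown because NICD has no DNA-binding domain of its own and acts through RBPJ, whose motif holds the letters TGGGAA. Each line gives the 250 bases before the first listed RefSeq start of the gene (GRCh38.p14), 5′ to 3′ on the strand of the gene, with TGGGAA or its reverse complement TTCCCA in capitals. HEY2 lies at chr6:125749382-125749631 on the plus strand, HES4 at chr1:1000098-1000347 on the minus strand and HES1 at chr3:194135898-194136147 on the plus strand.
HEY2: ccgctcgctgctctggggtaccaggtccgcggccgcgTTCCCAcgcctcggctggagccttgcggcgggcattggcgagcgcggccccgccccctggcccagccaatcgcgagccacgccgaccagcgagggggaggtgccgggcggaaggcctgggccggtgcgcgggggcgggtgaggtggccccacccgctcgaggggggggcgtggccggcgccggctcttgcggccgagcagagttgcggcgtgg
HES4: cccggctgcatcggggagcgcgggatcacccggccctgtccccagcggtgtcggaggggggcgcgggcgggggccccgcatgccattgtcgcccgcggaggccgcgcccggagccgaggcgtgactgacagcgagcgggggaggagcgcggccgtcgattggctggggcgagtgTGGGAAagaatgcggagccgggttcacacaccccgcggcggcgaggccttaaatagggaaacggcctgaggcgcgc
HES1: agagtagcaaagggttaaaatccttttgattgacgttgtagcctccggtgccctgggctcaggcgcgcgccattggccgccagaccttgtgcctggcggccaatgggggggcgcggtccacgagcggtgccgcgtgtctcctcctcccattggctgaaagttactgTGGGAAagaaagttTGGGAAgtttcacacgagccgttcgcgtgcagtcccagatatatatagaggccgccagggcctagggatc
HES1, which was not called between the forms, has 2 matches, 84 and 70 bases before the start, in the same direction. HES4 has 1 match, 76 bases before the start. HEY2, with the largest difference of the list, has 1 match in this window, 213 bases before the start on the other strand. A further HEY2 match begins 3 bases before the start and runs past it, so the window cuts it off. HES5 and HEYL, neither of them called, have 2 matches each. The windows of NRARP and JAG1 hold no match. HEY1, DTX1, MYC, CCND1 and SNAI2 had no entry in the promoter table used here.

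Over all genes, 15384 of the 19775 tested matched a promoter of 250 bases before to 50 after the first listed start, and 3906 genes have several starts. TGGGAA on either strand was found in 22.8% of these promoters (3503). It was found in 29.9% of those of genes at least 2-fold higher with NICD (55 of 184) and in 21.1% of those at least 2-fold lower (12 of 57). Over all called genes the shares were closer to that of all promoters, 24.4% for those higher (341 of 1400) and 20.7% for those lower (368 of 1775). The longer GTGGGAA, every match of which is also a match of TGGGAA, was found in 6.08% of all promoters (936). For genes at least 2-fold higher its share was 7.61% (14 of 184), and for those at least 2-fold lower 1.75%, which is 1 of 57. With only the 250 bases before the start, the TGGGAA shares were 20.1%, 28.8% and 15.8%. A match of a few letters is a description and not a bound site.

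Among the feedback genes, NRARP stood at 6.63 ± 0.22 with vector, at 8.88, 8.77 and 8.78 with Notch1 L1601P+∆P and at 11.05, 11.04 and 11.09 with NICD. The activated groups were tight and far apart, with a difference of 2.25 ± 0.10 (limma adjusted p = 6.74e-09). The Notch1 L1601P+∆P level lay -0.04 ± 0.09 from the midpoint between vector and NICD on the log2 scale (adjusted p = 0.861 for a departure from it). JAG1, a membrane ligand of the pathway, stood at 11.35, 11.39 and 11.56 with Notch1 L1601P+∆P and at 13.07, 13.04 and 13.06 with NICD. Its difference was 1.62 ± 0.06 (adjusted p = 2.17e-09), and 5 of its 6 probe sets were called the same way. LFNG, a glycosyltransferase that modifies Notch receptors, went the opposite way, from 6.50, 6.60 and 6.66 to 5.82, 5.29 and 5.51. The LFNG groups did not overlap, and the fall was -1.04 ± 0.10 (adjusted p = 1.19e-05), on 1 of its 2 probe sets; the other differed by 0.10.

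Other targets moved by less. SNAI2, a zinc-finger repressor of basal cells and of mesenchymal change, was higher by 1.03 ± 0.06 with NICD (limma adjusted p = 1.48e-07). CCND1, the cyclin that drives entry into the cell cycle, was higher by 0.55 ± 0.07, and ID3, an inhibitor of helix-loop-helix factors, by 0.38 ± 0.07. The receptor gene NOTCH3 was higher by 0.50 ± 0.07 (adjusted p = 0.000404), a call lost at 0.12 when all its probe sets were averaged. MYC was lower by -0.27 ± 0.05 from 13.11 ± 0.06, and DTX4, a ubiquitin ligase of the Deltex family, by -0.54 ± 0.06. The T-cell targets PTCRA (-0.16 ± 0.06) and IL7R (0.06 ± 0.11), and the luminal factor GATA3 (-0.17 ± 0.07), were not called. Each became called under some alternative. PTCRA was called at -0.23 without Notch1 L1601P+∆P replicate 1 (adjusted p = 0.0251), GATA3 at -0.23 without NICD replicate 2 (adjusted p = 0.0283), and IL7R at 0.64 on its probe set of largest variance (adjusted p = 0.00149).

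**Figure D2:**
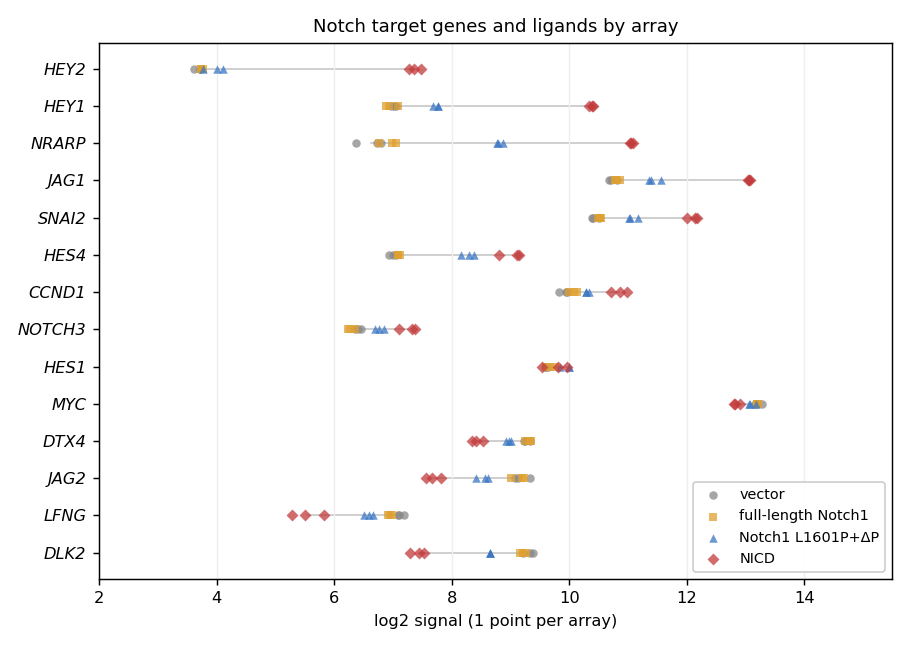
Log2 signal of 14 Notch target and ligand genes on each array (horizontal axis), with 1 marker per array in the colour of its group and a grey line from the lowest to the highest group mean. NICD stands apart on the right for HEY2, HEY1, NRARP and JAG1 and on the left for LFNG, JAG2 and DLK2, while for HES1 the NICD and Notch1 L1601P+∆P arrays overlap.

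Of the 40 receptor, ligand and machinery genes tested (42 listed), 9 were higher with NICD and 6 lower, and their median difference was 0.00. Of these 37.5% were called, beside 19.8% of all genes. Ligand genes were among the falls. DLK2, a Delta-like protein without the usual Notch-binding motif, stood at 8.66, 8.65 and 8.65 with Notch1 L1601P+∆P and at 7.29, 7.44 and 7.53 with NICD. DLK2 fell by 1.23 ± 0.07 (limma adjusted p = 4.47e-08), with no overlap. JAG2, a second Jagged ligand, fell from 8.62, 8.57 and 8.42 to 7.81, 7.56 and 7.66, or -0.86 ± 0.09 (adjusted p = 1.82e-05). JAG1 and JAG2 thus moved in opposite directions, each with all NICD arrays on one side. The Delta ligands DLL3 (-0.08 ± 0.06) and DLL4 (-0.17 ± 0.07) were not called, though DLL4 was called at -0.23 without NICD replicate 1 (adjusted p = 0.0371). DLL1, near the floor at 4.09 ± 0.11, differed by 0.15 ± 0.09 and its other probe set stood at -0.44 (adjusted p = 0.0457 over all probe sets).

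In the nuclear complex, the coactivator gene MAML3 fell by 0.73 ± 0.08 (limma adjusted p = 4.77e-05), on 1 of its 3 probe sets. The acetyltransferase gene EP300 rose by 0.43 ± 0.08 (adjusted p = 0.00205) and FURIN, the protease that cuts the receptor on its way to the surface, by 0.39 ± 0.08 (adjusted p = 0.00422). RBPJ was higher by 0.19 ± 0.06 (adjusted p = 0.0343), which was not called without NICD replicate 2 (adjusted p = 0.0545), NICD replicate 3 (adjusted p = 0.111), Notch1 L1601P+∆P replicate 1 (adjusted p = 0.103) or Notch1 L1601P+∆P replicate 2 (adjusted p = 0.135). Among the remaining called members the largest difference was that of PSEN2, a catalytic subunit of gamma-secretase, at -0.30 ± 0.05. The higher count was 4 without Notch1 L1601P+∆P replicate 1, 4 without Notch1 L1601P+∆P replicate 2 and 2 with only the 6 arrays in the fit.

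The 12 largest called rises and 12 largest called falls were chosen by size in this contrast among genes whose arrays did not overlap, so their sizes are a description. ACKR3, a scavenger receptor for the chemokine CXCL12, stood at 3.60, 3.66 and 3.84 with Notch1 L1601P+∆P and at 9.80, 9.5 and 9.77 with NICD. With Notch1 L1601P+∆P it was dim, just above vector (3.47 ± 0.10) on each array and not called against it (0.23, limma adjusted p = 0.247). Folds against levels near the floor understate the change. The difference was 5.99 ± 0.11 (limma adjusted p = 4.27e-12), and 2 of its 3 probe sets were called. GABRP, a subunit of the GABA-A receptor found in epithelia, stood at 4.64, 4.08 and 4.22 against 10.11, 10.32 and 10.26. GABRP thus differed by 5.92 ± 0.13 (adjusted p = 1.3e-11), again with a Notch1 L1601P+∆P level that was not called against vector (0.33, adjusted p = 0.159). SLC51A, a subunit of a bile acid and steroid transporter, behaved alike, at 3.45 ± 0.11 against 7.38 ± 0.22, where vector stood at 3.45 ± 0.15.

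FDCSP, a small secreted peptide known from follicular dendritic cells and from saliva, stood at 4.35, 4.56 and 4.52 with Notch1 L1601P+∆P and at 10.11, 10.25 and 9.87 with NICD, a difference of 5.60 ± 0.10 (limma adjusted p = 4.27e-12). CXCL14, a chemokine made by epithelia, stood at 6.75, 7.14 and 6.87 against 11.88, 11.99 and 11.93. CXCL14 had already moved from vector (5 ± 0.25) to Notch1 L1601P+∆P, by 1.92, and rose by a further 5.02 ± 0.12 with NICD (adjusted p = 2.41e-11). CHI3L2, a chitinase-like secreted protein, took an even larger first step, from 6.03 ± 0.17 with vector to 9.31, 9.48 and 9.5, before reaching 13.53, 13.49 and 13.67 with NICD (4.13 ± 0.10, adjusted p = 2.36e-11). The remaining large rises were those of IGFBP7-AS1, an antisense transcript at the gene of an IGF-binding protein (5.12 ± 0.11), DAPL1 (4.62 ± 0.11), the secreted phospholipase PLA2G5 (4.31 ± 0.11), the glutathione peroxidase GPX2 (4.22 ± 0.08), the actin-linked adaptor AFAP1L2 (3.77 ± 0.11) and GUCY1A1 (3.76 ± 0.09). GUCY1A1 encodes a subunit of the nitric oxide receptor guanylate cyclase, and its partner subunit GUCY1B1, named after its values were seen, went from 6.81 ± 0.23 to 10.43 ± 0.12.

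The falls were smaller. KRT15, a keratin of basal and progenitor cells, stood at 12.22, 12.15 and 12.04 with Notch1 L1601P+∆P and at 9.93, 10 and 9.96 with NICD. KRT15 remained bright but fell by 2.18 ± 0.06 (limma adjusted p = 4.74e-11), while the step from vector (12.50 ± 0.04) to Notch1 L1601P+∆P was -0.36. FOXQ1, a forkhead transcription factor, fell from 8.61, 8.59 and 8.60 to 6.47, 6.76 and 6.51, or -2.02 ± 0.07 (adjusted p = 7.57e-10). PSCA, a GPI-anchored surface protein, fell from 10.73, 10.72 and 10.44 to 8.48, 8.76 and 8.72, or -1.98 ± 0.10 (adjusted p = 2.17e-08). Aldehyde oxidase AOX1 (-1.83 ± 0.05), the collagen chain COL8A1 (-1.80 ± 0.07), the matrix protein SVEP1 (-1.65 ± 0.06) and ZBED2 (-1.49 ± 0.06) fell as well. COL8A1 was called on 2 of 3 probe sets and SVEP1 on 5 of 7. TPRG1 (-1.83 ± 0.11), EXPH5 (-1.61 ± 0.18) and the long non-coding RNAs LNCAROD (-1.61 ± 0.14) and LINC02806 (-1.53 ± 0.30) complete the list with KLRC3 (-1.70 ± 0.07). KLRC3 has near-identical relatives among the killer-cell lectin receptor genes, so its probes may read more than 1 of them.

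The host transcript of a miRNA lay just outside this list. MIR205HG, named after its values were seen, stood at 10.60 ± 0.06 with Notch1 L1601P+∆P and 9.15 ± 0.08 with NICD, and fell by 1.45 ± 0.06 (limma adjusted p = 4.3e-09). A probe set named for MIR205 went from 10.29 ± 0.02 to 8.88 ± 0.09. The miRNA is known for keeping the epithelial state through the ZEB genes, and its mature sequence is shown with the seed, bases 2 to 8, in capitals (RefSeq, GRCh38.p14, chr1:209432166-209432187, plus strand).
hsa-miR-205-5p: uCCUUCAUuccaccggagucug
The array reads the long transcript and not this mature miRNA. ZEB2, one of the repressors named above, stood at 5.33 ± 0.30 with Notch1 L1601P+∆P and 6.76 ± 0.16 with NICD, and ZEB1 at 6.12 ± 0.12 and 6.97 ± 0.24, both named after their values were seen. A link between the miRNA and the ZEB levels was not tested.

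**Figure D3:**
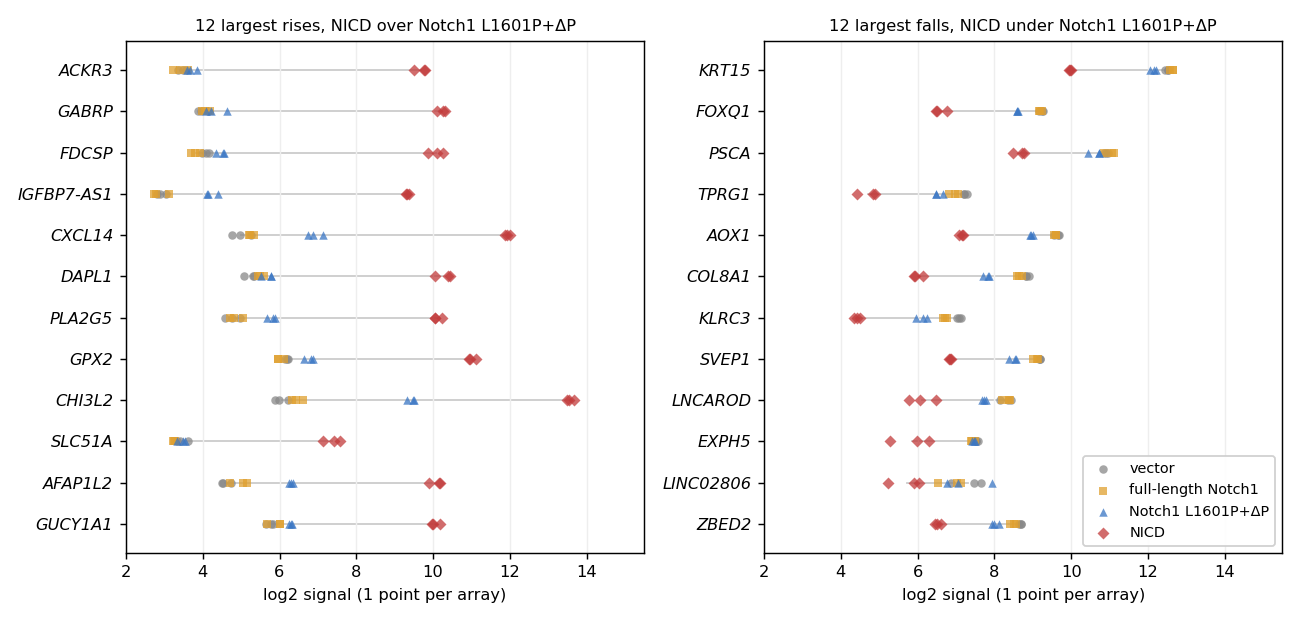
Log2 signal on each array (horizontal axis) for the 12 largest rises (left) and 12 largest falls (right) in NICD against Notch1 L1601P+∆P, 1 marker per array and group. For ACKR3, GABRP and SLC51A the Notch1 L1601P+∆P arrays lie close to those of vector, while for CHI3L2 and CXCL14 they lie between vector and NICD.

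Secreted proteins of mucosal and glandular epithelia were higher with NICD in 13 of the 26 genes tested and lower in 2, with a median difference of 0.22. In this list 57.7% were called, beside 19.8% of all genes. OLFM4, a glycoprotein of crypt cells, stood at 3.62 ± 0.27 with vector, at 10.13, 10.04 and 10.37 with Notch1 L1601P+∆P and at 13.48, 13.37 and 13.45 with NICD. Its rise between the activated forms was 3.25 ± 0.13 (limma adjusted p = 2.01e-09), smaller than the first step of 6.56. PLA2G2A, a secreted phospholipase with antibacterial action, stood at 6.83 ± 0.11 with vector, at 13.30, 13.56 and 13.55 with Notch1 L1601P+∆P and at 14.49, 14.46 and 14.48 with NICD. PLA2G2A was already among the brightest signals with the receptor form, and the further rise was 1.01 ± 0.07 (adjusted p = 7.05e-07). AGR2, a protein disulfide isomerase of secretory cells, fell by 1.10 ± 0.15 (adjusted p = 0.000241) on 1 of its 2 probe sets, and PSCA is the other member that fell. Without dim genes, 10 members were higher and 1 lower.

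The promoters of CXCL14 and PLA2G2A are shown because both genes rose in both steps but in opposite proportion. CXCL14 lies at chr5:135578992-135579241 and PLA2G2A at chr1:19979660-19979909, both on the minus strand (GRCh38.p14, 250 bases before the first listed start, TGGGAA or TTCCCA in capitals).
CXCL14: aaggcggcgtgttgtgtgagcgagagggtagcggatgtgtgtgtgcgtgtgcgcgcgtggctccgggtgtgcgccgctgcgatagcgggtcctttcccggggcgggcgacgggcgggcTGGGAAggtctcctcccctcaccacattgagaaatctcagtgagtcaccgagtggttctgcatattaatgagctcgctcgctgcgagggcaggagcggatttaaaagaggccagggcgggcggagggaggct
PLA2G2A: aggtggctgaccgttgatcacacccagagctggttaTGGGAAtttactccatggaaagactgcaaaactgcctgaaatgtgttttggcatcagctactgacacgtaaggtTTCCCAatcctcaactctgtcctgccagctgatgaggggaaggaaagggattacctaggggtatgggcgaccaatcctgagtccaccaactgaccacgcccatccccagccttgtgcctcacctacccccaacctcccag
CXCL14 has 1 match, 132 bases before the start. PLA2G2A has 2 matches, 214 and 140 bases before the start, on opposite strands. CHI3L2 and GABRP have none in the window, and ACKR3 and FDCSP had no entry.

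Mesenchymal and EMT (epithelial-mesenchymal transition) markers were higher with NICD in 15 of 27 genes and lower in 2, with a median difference of 0.39. Their called share of 63% stands beside 19.8% of all genes. FBN1, the microfibril protein fibrillin, stood at 6.63, 6.96 and 6.70 with Notch1 L1601P+∆P and at 9.29, 9.38 and 9.20 with NICD, a rise of 2.52 ± 0.09 (limma adjusted p = 1.38e-09). POSTN, a matrix protein of fibroblasts, rose from 5.90, 6.07 and 5.74 to 8.28, 8.24 and 8.11 (2.30 ± 0.10), and SPARC, a collagen-binding matrix protein, by 2.28 ± 0.08. In these genes the groups lay apart by far more than the spread within them. COL6A1, a chain of collagen VI, rose by 1.85 ± 0.09, although only 3 of its 8 probe sets were called. LOX, a collagen cross-linking enzyme, fell by 0.54 ± 0.06 and TWIST1, a transcription factor of mesenchymal cells, by 0.29 ± 0.07. TWIST1 was not called without Notch1 L1601P+∆P replicate 3 (-0.23, adjusted p = 0.0539), which left 1 member lower. Without dim genes 9 members were higher.

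Markers of fibroblasts, endothelium and blood cells were read beside that list, and POSTN stands in both. Of 15 tested, 26.7% were called, beside 19.8% of all genes. The 4 called members were all higher with NICD: POSTN, the lipopolysaccharide co-receptor CD14 (1.73 ± 0.06), the VEGF receptor KDR (0.88 ± 0.09) and the proteoglycan DCN (0.30 ± 0.05). Their summed linear signal was 3295 to 3374 with Notch1 L1601P+∆P and 5657 to 6002 with NICD. Without those 4 genes it was 511 to 537 and 470 to 500. PTPRC (3.50 ± 0.19 and 3.63 ± 0.10), CDH5 (3.53 ± 0.04 and 3.56 ± 0.14) and LUM (3.20 ± 0.17 and 3.28 ± 0.05) stayed near the floor in both groups. DCN, by contrast, was bright throughout, at 10.85 ± 0.04 with vector, 10.91 ± 0.03 with Notch1 L1601P+∆P and 11.21 ± 0.05 with NICD. CD14 stood at 8.75 ± 0.09, 9.61 ± 0.04 and 11.34 ± 0.05 in the same order. Without dim genes 2 of the markers were higher. The part of such cells in the mesenchymal list was not tested.

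Integrins, laminins and basement membrane genes were lower with NICD in 11 of 22 and higher in 5, with a median difference of -0.24. Called members made up 72.7%, beside 19.8% of all genes. The chains of the hemidesmosome, which fixes basal cells to the basement membrane, were among the falls. ITGB4 stood at 10.38, 10.35 and 10.35 with Notch1 L1601P+∆P and at 8.93, 9.14 and 8.93 with NICD (-1.36 ± 0.06, limma adjusted p = 1.25e-08), and 3 of its 5 probe sets were called. Its partner chain ITGA6 fell by 0.86 ± 0.05, the linker dystonin, DST, by 1.36 ± 0.08 and the laminin chain LAMB3 by 1.06 ± 0.05. No array of one group reached the range of the other for ITGB4, DST or LAMB3. The fibronectin and vitronectin receptor chains ITGA5 (0.67 ± 0.07) and ITGAV (0.65 ± 0.06) rose, as did the basement membrane collagens COL4A1 (1.62 ± 0.06) and COL4A2 (0.97 ± 0.09).

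Basal and myoepithelial markers went both ways, with 4 higher and 5 lower of 16 and a median of -0.03, which became 0.03 after cyclic loess scaling. Calls covered 56.2% of these markers, beside 19.8% of all genes. MME, the surface peptidase CD10 of myoepithelial cells, rose by 1.18 ± 0.06 (limma adjusted p = 2.21e-08) from 9.52, 9.62 and 9.57 to 10.78, 10.69 and 10.80. KRT5 rose by 0.23 ± 0.05 and the neurotrophin receptor NGFR by 0.36 ± 0.08, while KRT15, DST, ITGB4 and ITGA6 fell. Smooth-muscle actin, ACTA2, was 0.38 ± 0.06 higher on its brightest probe set. Its other probe sets lay near the floor, at 3.35 with Notch1 L1601P+∆P, and were not called. EGFR, named after its values were seen, fell from 10.65 ± 0.03 to 10.03 ± 0.04 and is the fifth of the members that fell.

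Of 24 luminal markers tested, 2 were higher and 5 lower (median -0.10). The called share was 29.2%, beside 19.8% of all genes, and the 2 rises are about the share of all genes that were higher (8.73%). The pioneer factor FOXA1 fell by 0.78 ± 0.11 (limma adjusted p = 0.000254) and the surface protein CD24 by 0.48 ± 0.09, while the trefoil peptide TFF1 rose by 0.94 ± 0.11. KRT8, higher by 0.26 ± 0.08, was not called without NICD replicate 2 (0.18), NICD replicate 3 (0.29), Notch1 L1601P+∆P replicate 1 (0.26) or Notch1 L1601P+∆P replicate 3 (0.19), which left 1 member higher. Of 23 junction genes 5 were higher and 4 lower, 39.1% of the list beside 19.8% of all genes (median 0.03). The desmosome genes DSC3 (0.63 ± 0.07), DSC2 (0.51 ± 0.07), DSG3 (0.43 ± 0.05) and DSP (0.31 ± 0.06) rose, and the plakophilin PKP2 (-0.94 ± 0.07) and the polarity gene CRB3 (-0.36 ± 0.06) fell. The count of junction genes lower was 2 without NICD replicate 1, NICD replicate 3 or Notch1 L1601P+∆P replicate 1.

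Keratinocyte differentiation genes divided as well, with 5 of 26 higher, 8 lower and a median of -0.06. Among them 50% were called, beside 19.8% of all genes. IVL, the cornified envelope protein involucrin, rose from 7.47, 7.53 and 7.32 to 9.77, 10.07 and 9.76 (2.43 ± 0.10, limma adjusted p = 3.4e-09). S100A7, the antimicrobial protein psoriasin, rose by 2.21 ± 0.18, and the calprotectin chains S100A8 and S100A9 by 0.72 ± 0.08 and 0.85 ± 0.09. The cross-linking enzyme TGM1 (-0.69 ± 0.07), the envelope proteins PPL (-0.69 ± 0.07) and SPRR1A (-0.74 ± 0.11) and the keratin KRT4 (-0.93 ± 0.12) fell. The members of this list that the cornified envelope holds thus did not move together: IVL rose while PPL and SPRR1A fell.

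Inflammatory cytokines and NF-kB targets were higher in 6 and lower in 4 of 24, with a median of 0.11. Calls covered 41.7% of the list, beside 19.8% of all genes. IL6, the cytokine of the acute phase, stood at 5.01, 5.21 and 5.30 with Notch1 L1601P+∆P and at 8.63, 8.48 and 8.44 with NICD. The IL6 groups lay 3.34 ± 0.09 apart (limma adjusted p = 4.8e-11), and with Notch1 L1601P+∆P it was not called against vector (0.23, adjusted p = 0.153). The NF-kB inhibitor TNFAIP3 rose by 1.41 ± 0.06 and the chemokines CXCL2 and CCL20 by 1.03 ± 0.06 and 0.54 ± 0.07. IL1A fell by 0.90 ± 0.07 and the growth factor CSF3 by 0.78 ± 0.09. The higher count was 4 without NICD replicate 1. Of 27 type I interferon genes, 6 were higher, led by the exonuclease ISG20 (0.82 ± 0.10), and 7 lower, led by IFI44L (-1.30 ± 0.10), with a median of -0.01 that became 0.02 after cyclic loess scaling. Interferon calls made up 48.1% of their list, beside 19.8% of all genes.

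EGFR ligands and MAPK feedback genes fell in 14 of the 20 tested and rose in 2, with a median of -0.40, in a comparison where 11.1% of all genes were lower. EPHA2, a receptor kinase induced by MAPK signalling, fell from 9.57, 9.46 and 9.56 to 8.75, 8.72 and 8.57 (-0.85 ± 0.06, limma adjusted p = 3.81e-07). The ligands EREG (-0.81 ± 0.07) and HBEGF (-0.74 ± 0.10) and the feedback inhibitor SPRY2 (-0.75 ± 0.06) fell, while the ligand TGFA (0.34 ± 0.06) and the early response gene IER3 (0.24 ± 0.06) rose. The count of 14 lower was between 14 and 15 when any 1 of the 6 arrays was left out.

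TGF-beta and YAP targets were split, 6 higher and 7 lower of 18, 72.2% of the list beside 19.8% of all genes (median 0.02). CCN1, a matricellular protein, rose from 10.94, 11.13 and 11.08 to 12.06, 11.86 and 11.99 (0.92 ± 0.07, limma adjusted p = 1.01e-06), after a larger step of 2.29 from vector to Notch1 L1601P+∆P. Tissue factor F3 rose by 1.09 ± 0.07. The receptor kinase AXL fell from 8.15, 8.29 and 8.38 to 6.66, 6.86 and 6.86 (-1.48 ± 0.08, 1 of 2 probe sets called), the LIM protein AJUBA by 1.21 ± 0.06 and thrombospondin THBS1 by 1.03 ± 0.09. In the BMP list 3 of 16 were higher and 3 lower (median -0.01, and 0.02 after cyclic loess scaling), with SMAD9 up by 0.61 ± 0.10 and BMP2 down, at -0.48 ± 0.07. BMP calls made up 37.5% of their list, beside 19.8% of all genes.

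Several lists of metabolic and stress genes held mostly falls with NICD. In cholesterol and fatty acid synthesis 13 of 18 were lower and 1 higher, 77.8% of the list beside 19.8% of all genes (median -0.32). The desaturase SCD fell by 0.65 ± 0.05 (limma adjusted p = 1.81e-06), acetyl-CoA carboxylase ACACA by 0.58 ± 0.05 and the regulator SREBF1 by 0.53 ± 0.08, while LSS, lanosterol synthase, rose by 0.33 ± 0.05. HMGCS1 varied most between replicates, at 10.24, 10.23 and 10 with Notch1 L1601P+∆P and 9.44, 9.86 and 8.59 with NICD. Its fall of -0.86 ± 0.25 was not called without NICD replicate 3 (-0.51, adjusted p = 0.0687), Notch1 L1601P+∆P replicate 1 (-0.82, adjusted p = 0.0835) or Notch1 L1601P+∆P replicate 2 (-0.82, adjusted p = 0.0822). These values are of the brighter HMGCS1 probe set. The other stood at 9.08 ± 0.05 with Notch1 L1601P+∆P and 8.97 ± 0.02 with NICD. Its difference of -0.11 ± 0.06 was not called (limma adjusted p = 0.261 over all probe sets).

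In the unfolded protein and amino acid stress list 14 of 25 were lower and 1 higher, 60% beside 19.8% of all genes (median -0.37). The amino acid transporters SLC7A5 and SLC7A11 fell by 1.09 ± 0.06 and 1.31 ± 0.19, and the pseudokinase TRIB3 and the glutathione-degrading CHAC1 by 1.02 ± 0.14 and 0.94 ± 0.22. Notch1 L1601P+∆P replicate 3 was the highest of its group for SLC7A11, at 9.57 beside 8.84 and 8.64. In this group TRIB3 was likewise spread, at 10.24, 9.99 and 10.67, while NICD stood at 9.24, 9.35 and 9.25. The single rise was that of the chaperone DNAJC3, 0.36 ± 0.05 on its brightest probe set, where 2 of its 4 probe sets were called lower instead.

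Of the NRF2 antioxidant and AKR genes, 12 of 18 were lower and 2 higher, 77.8% beside 19.8% of all genes (median -0.38). ALDH3A1, an aldehyde dehydrogenase, fell from 8.40, 8.37 and 8.37 to 7.09, 6.93 and 6.94 (-1.39 ± 0.08, limma adjusted p = 4.75e-08). The ketosteroid reductases AKR1C2 and AKR1C1 fell by 1.04 ± 0.06 and 1 ± 0.07, and as near-identical copies they may share probes. The higher count was 1 without NICD replicate 1, NICD replicate 2, Notch1 L1601P+∆P replicate 1 or Notch1 L1601P+∆P replicate 3. Hypoxia and glycolysis genes were even, 5 higher and 5 lower of 22 (45.5% called beside 19.8% of all genes, median -0.08). The oxygen sensor EGLN3 was up by 1.30 ± 0.08 and the glycolytic PFKP stood at -0.43 ± 0.06.

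Few proliferation genes were called between the forms. Of 36 DNA replication genes 2 were higher and 3 lower, 13.9% of the list beside 19.8% of all genes, with a median of -0.02, which became 0.01 after cyclic loess scaling. Of 30 mitosis genes 2 were called, 6.67% of the list beside 19.8% of all genes. Both were higher, as were 8.73% of all genes, and the list median was 0.06. No mitosis gene was called lower by limma, and 1 was when dim genes were left out. The phosphatase CDC25B rose by 0.49 ± 0.05 (limma adjusted p = 2.24e-05), whereas the topoisomerase TOP2A, 0.19 ± 0.06 higher, was not called without any 1 of NICD replicates 1 to 3 or Notch1 L1601P+∆P replicates 1 and 2 (0.14 to 0.21). The mitosis count was 5 without Notch1 L1601P+∆P replicate 3. For DNA replication the higher count was 1 without NICD replicate 1, NICD replicate 2, Notch1 L1601P+∆P replicate 1 or Notch1 L1601P+∆P replicate 2, and the lower count 1 without NICD replicate 1 or Notch1 L1601P+∆P replicate 1. MKI67, the proliferation antigen, named after its values were seen, stood at 9.40 ± 0.04 and 9.42 ± 0.07.

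Growth arrest genes were higher in 5 and lower in 2 of 14, 50% of the list beside 19.8% of all genes (median 0.10). The Krüppel-like factor KLF9 rose by 1.81 ± 0.11 on its brightest probe set (limma adjusted p = 1.08e-07), 3 of 5 being called, GADD45A by 0.77 ± 0.05 and BTG1 by 0.65 ± 0.05, and CDKN1A, the inhibitor p21, by 0.29 ± 0.06. TXNIP fell by 0.64 ± 0.05 and KLF4 by 0.42 ± 0.08. The p53 targets were 6 higher and 5 lower of 19 (57.9% called beside 19.8% of all genes, median 0.10). Among them PLK2 was up by 0.67 ± 0.06 and the cytokine GDF15 stood at -0.60 ± 0.12. Ribosome biogenesis and MYC targets were lower in 6 of 18 and higher in 0 (33.3% called beside 19.8% of all genes). Their median was -0.16, and ornithine decarboxylase ODC1 led the falls (-0.45 ± 0.05). The lower count of that list was 3 without Notch1 L1601P+∆P replicate 1, 2 with only the 6 arrays in the fit, 3 after cyclic loess scaling and 11 with trended, robust moderation.

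**Figure D4:**
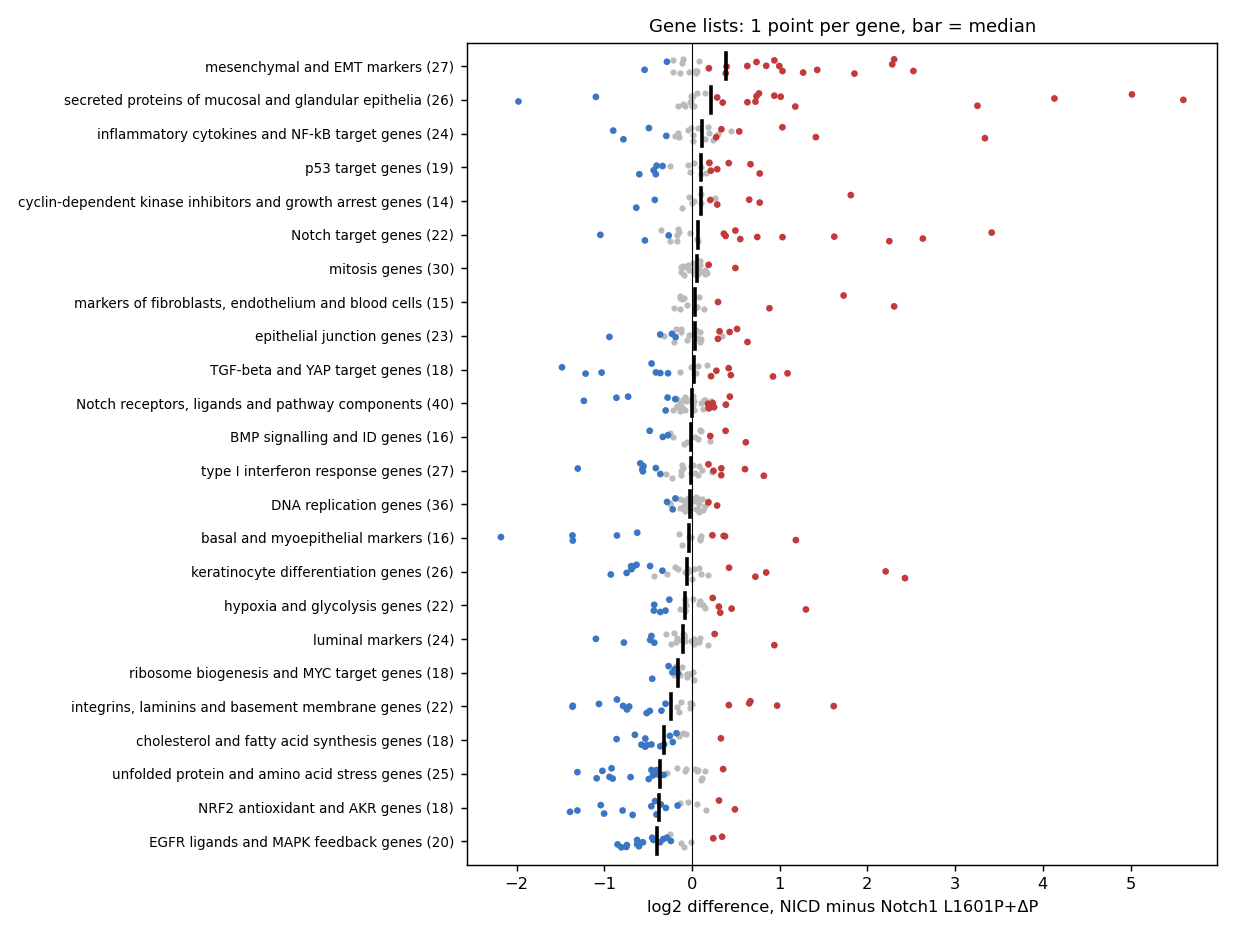
Log2 difference between NICD and Notch1 L1601P+∆P (horizontal axis) for each tested member of the 24 gene lists, with called genes in red (higher) or blue (lower), others in grey and the list median as a black bar; the number tested stands in brackets. The medians run from -0.40 for the EGFR and MAPK feedback list to 0.39 for the mesenchymal list, and most lists hold calls in both directions.

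The position of Notch1 L1601P+∆P between vector and NICD differed from gene to gene. These comparisons share arrays, so their values are given side by side only. Over all genes 2.16% were called higher and 2.95% lower with Notch1 L1601P+∆P than with vector. On the log2 scale 975 genes (4.93%) lay off the midpoint of vector and NICD. PLA2G2A lay 2.81 ± 0.06 above its midpoint (limma adjusted p = 2.21e-10) and OLFM4 1.65 ± 0.11 above (adjusted p = 1.89e-06). IGFL1, a small secreted protein of the insulin-like growth factor kind, lay 0.98 ± 0.09 above and the protease inhibitor SERPINA3 0.64 ± 0.05 above. In these 4 genes the Notch1 L1601P+∆P signal lay nearer NICD than vector. PLA2G2A and SERPINA3 with NICD were close to the highest value on any array, 15.01, where signals can be compressed, so their departures may be overstated. ACKR3 lay -2.88 ± 0.09 from its midpoint (adjusted p = 5.59e-09), GABRP -2.79 ± 0.11 and HEY2 -1.57 ± 0.07, which leaves them near vector. These genes were dim both with vector and with Notch1 L1601P+∆P, where differences can be compressed, so their step from vector may be understated. HSD17B2, an enzyme that inactivates estradiol, was at 7.28 ± 0.14, 9.64 ± 0.09 and 12.26 ± 0.02 in the order vector, Notch1 L1601P+∆P and NICD, and its departure of -0.12 ± 0.07 was not called.

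The 8 largest rises and 6 largest falls from vector to Notch1 L1601P+∆P moved on in the same direction with NICD. SERPINA3 stood at 10.81 ± 0.11 with vector, at 13.28, 13.31 and 13.24 with Notch1 L1601P+∆P and at 14.50, 14.46 and 14.41 with NICD, so the further rise was 1.18, with a 95% interval from 1.05 to 1.31 (limma adjusted p = 2.62e-08). IGFL1 stood at 8 ± 0.15, at 10.62, 10.78 and 10.56 and at 11.26, 11.57 and 11.21, with a further rise of 0.69 and an interval from 0.46 to 0.92. Both genes had their larger step before NICD. CCDC102B, at 3.63 ± 0.28, 5.93 ± 0.11 and 9.38 ± 0.14, rose further by 3.45, from 3.18 to 3.73, and SERPINB4, a serpin with a near-identical neighbour that its probes may also read, by 2.11, from 1.87 to 2.36. RAP1A, a small GTPase, fell on its brightest probe set from 13.37 ± 0.06 with vector to 11.80 ± 0.03 with Notch1 L1601P+∆P. With NICD it fell by a further 0.52 ± 0.06, where 2 of 4 probe sets fell and 1 rose. In the step from vector, another RAP1A probe set differed by -1.87. The remaining ones, at 0.11 and -0.11, were not called (limma adjusted p = 0.505 and 0.307 over all probe sets). GREB1, an estrogen-responsive gene, fell by 0.77 ± 0.08 with NICD (1 of 3 probe sets) and BLNK, an adaptor of B-cell signalling, by 0.93 ± 0.11.

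A few genes had Notch1 L1601P+∆P outside the range of vector and NICD, and they are named because of this pattern. CALB1, a calcium-buffering protein, stood at 8.59 ± 0.15 with vector, at 9.18, 9.02 and 9.04 with Notch1 L1601P+∆P and at 8.12, 8.25 and 8.13 with NICD. NICD was thus lower by -0.91 ± 0.08 than Notch1 L1601P+∆P, with Notch1 L1601P+∆P 0.49 above vector. PTX3, a pattern recognition molecule of innate immunity, had the reverse order, with 7.5 ± 0.16, then 6.66, 6.89 and 7.16, then 7.98, 8 and 8. NAP1L3 (4.38 ± 0.09, 3.86 ± 0.03 and 5 ± 0.06) and the ectonucleotidase ENTPD2 (7.16 ± 0.19, 6.67 ± 0.08 and 7.25 ± 0.09) were likewise lowest with Notch1 L1601P+∆P. NAP1L3 was dim, and the other ENTPD2 probe set was not called over all probe sets. There Notch1 L1601P+∆P stood -0.27 from vector (limma adjusted p = 0.23) and NICD 0.09 from Notch1 L1601P+∆P (adjusted p = 0.678). For C6orf132, RXFP3, CCR1, SSTR2, LOC101928850, NEXN, ATP8A1 and KBTBD7 the call against vector was lost under at least 1 alternative, for example for NEXN without Notch1 L1601P+∆P replicate 1 (-0.37, adjusted p = 0.0604).

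**Figure D5:**
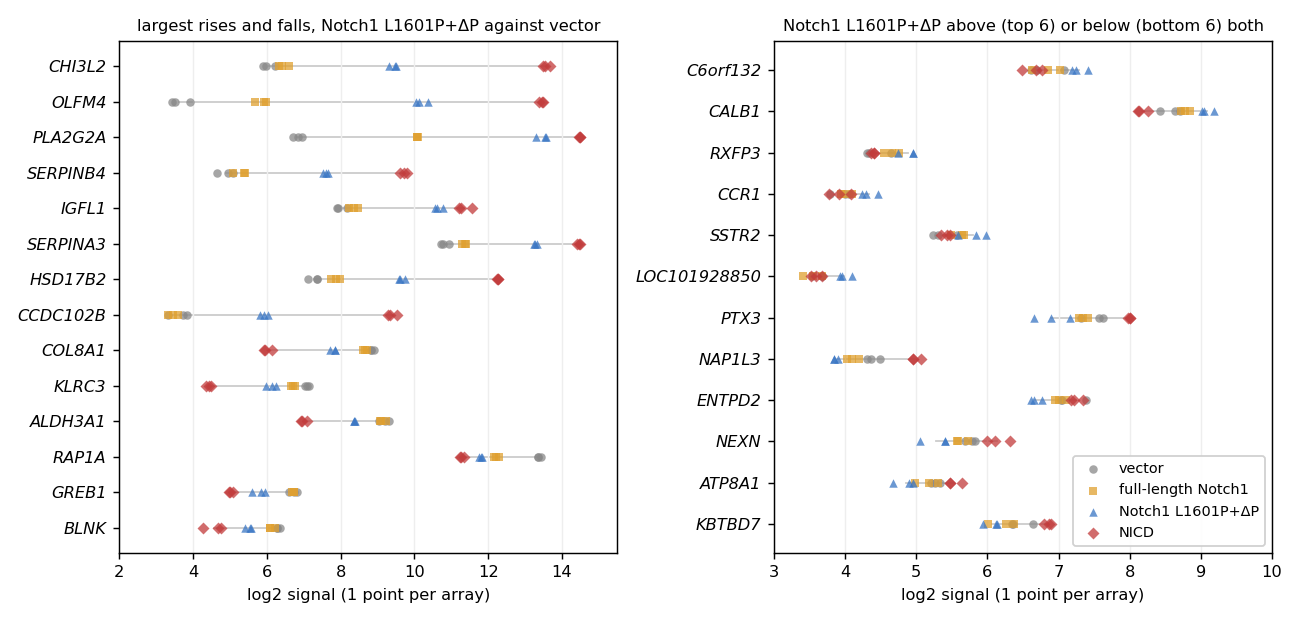
Log2 signal on each array (horizontal axis) for the largest rises and falls in Notch1 L1601P+∆P against vector (left) and for genes with Notch1 L1601P+∆P above or below both vector and NICD (right), 1 marker per array and group. On the left PLA2G2A, IGFL1 and SERPINA3 have Notch1 L1601P+∆P nearer NICD, CCDC102B has it nearer vector, and on the right CALB1 has it above both and PTX3 below both.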

How the data were processed

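The authors deposited log2 signals of 54675 probe sets for 12 Affymetrix arrays in a value table, which was used as given, with no scanner file. The submitters' processing notes name RMA and limma, without versions. RMA makes the distributions of all arrays nearly the same, which hides any change common to most genes.

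Gene names came from the platform annotation: 41091 probe sets carried 1 symbol, 1801 several and 11721 none, and 62 were controls. The 41037 that matched a RefSeq gene number kept their symbols. The probe set with the highest mean over the 12 arrays stood for each of 19775 genes, 10523 of which have several.

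limma 3.58.1 (R 4.3.3) fitted the group means over all 12 arrays (8 residual and 4.09 prior degrees of freedom), two-sided, with Benjamini-Hochberg adjustment over all genes at 0.05. The fit was tested on simulated data. Of 567 genes in 24 lists 524 were tested, and the others were not analysed here. Lists share members.

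The groups compared, the lists and the rule were chosen with earlier results of these data known. The rule names NOTCH1, the 12 largest called rises and falls without overlap, any Notch list member, up to 4 called members per direction of other lists, the 8 largest rises and 6 largest falls of Notch1 L1601P+∆P against vector, and up to 6 genes with Notch1 L1601P+∆P above or below both vector and NICD. Alternatives changed the arrays in the fit, the scaling, the probe set, the filter, the moderation and the replicates. Promoters and the miRNA are from RefSeq (GRCh38.p14).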

Additional observations from a re-analysis of the deposited data

How the results depend on the processing

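The counts of genes higher and lower stayed within 1.5 times their reported values under every alternative. When 1 of the 6 arrays was left out, 1370 to 1656 genes were higher and 1640 to 2418 lower. Those higher by 2-fold or more numbered 238 to 245, and those lower by 2-fold or more 67 to 84. Leaving out genes below the median signal brought those at least 2-fold higher from 239 to 146, since many of them are dim. Averaging all probe sets of a gene brought those at least 2-fold lower from 75 to 47. On the probe set of largest variance the difference turned sign for DLL1 (-0.44), ADAM17 (-0.29), SPEN (-0.61), ACTA2 (-0.16), TOP2A (-0.30), NOP16 (0.17) and DNAJC3 (-0.48), and with averaged probe sets for DNAJC3 (-0.13). For ACTA2 that probe set was near the floor and not called. The cause was not tested. Of 198 named genes called between NICD and Notch1 L1601P+∆P, 161 were called in the same direction under every alternative that gave a value, and 36 lost the call under at least 1. Of the 198, ACTA2, TOP2A, NOP16 and DNAJC3 changed sign under at least 1 alternative. Same-numbered replicates did not deviate together (correlations -0.031, -0.115 and -0.074), and no array correlated best with its own number. With the replicate number as a block 1617 genes were higher and 2025 lower, and by 2-fold or more 239 higher and 75 lower. With 3 arrays a group, small differences have wide intervals, and differences of very dim and very bright genes can be compressed.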

Other observations

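Other genes of known role moved, and both were picked after their values were seen. SPP1, the secreted phosphoprotein osteopontin, stood at 4 ± 0.11 with Notch1 L1601P+∆P and 7.54 ± 0.06 with NICD on its brighter probe set, a difference of 3.53 ± 0.10, and its other probe set, near the floor, differed by 0.17. PI3, the protease inhibitor elafin, stood at 11.99 ± 0.10 with vector, 13.89 ± 0.03 with Notch1 L1601P+∆P and 14.63 ± 0.02 with NICD. The letters TGACTCA, a motif of AP-1 factors that was searched after the values were seen, were found on either strand in 9.24% of the promoters of genes at least 2-fold higher with NICD (17 of 184), in 5.26% of those at least 2-fold lower (3 of 57) and in 3.74% of all (575 of 15384). Over all genes called higher the share was 4.21% (59 of 1400). Another motif searched in the same way, TTGCATCA, was found in 0.543% of the promoters at least 2-fold higher (1 of 184), in 3.51% of those at least 2-fold lower (2 of 57) and in 0.722% of all (111).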
